A study of Homo sapiens with 6 samples.

Results

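The genes described here are 5 of the 16574 in the tables, all of them concerned with fat handling: ANGPTL4, PLIN2, HILPDA, CPT1A and PDK4. They were listed by symbol as a lipase inhibitor, lipid droplet genes and fatty acid oxidation genes that PPAR receptors are known to induce, some of them shared with the response to low oxygen. The list was drawn up with the difference between BDE209 and DMSO already known in these libraries, so that difference is given for the members as a description and without a test. RNA was sequenced from Nthy-ori 3-1, a human thyroid follicular epithelial line immortalised with a viral oncogene and labelled wild type. Its cells were held for 27 days either in 2.5 µM BDE209 (decabromodiphenyl ether, a fully brominated flame retardant) or in a matching volume of the solvent dimethyl sulfoxide (DMSO), with 3 libraries in each of the 2 groups, numbered 1 to 3. It is 1 line in culture, nothing in the labels states whether replicates came from separate cultures, so any p-value measures only the spread between these libraries, which may be technical.

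Peroxisome proliferator-activated receptors (PPARs) are nuclear receptors that bind fatty acids, pair with the retinoid receptor RXR and switch on genes for storing and burning fat. ANGPTL4, a secreted protein, blocks lipoprotein lipase and so limits the uptake of fatty acids from lipoproteins. PLIN2 coats lipid droplets in most cell types, and HILPDA is a small droplet protein that restrains the triglyceride lipase PNPLA2. CPT1A makes acylcarnitines at the mitochondrial outer membrane, the controlling step for fatty acid entry, and PDK4 phosphorylates and switches off pyruvate dehydrogenase, which spares glucose. Hypoxia-inducible factor (HIF), which is stabilised in low oxygen, is also known to induce ANGPTL4, HILPDA and PLIN2.

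The start regions of ANGPTL4 and PLIN2 carried letters of the HIF core motif, and that of PDK4, shown as a contrast, carried none. Each sequence below is the 250 bases before the gene's start on its own strand, from RefSeq (GRCh38.p14), at chr19:8363905-8364154 (plus strand) for ANGPTL4, chr9:19127493-19127742 (minus strand) for PLIN2 and chr7:95596517-95596766 (minus strand) for PDK4. Capitals mark ACGTG or GCGTG, the core that HIF is known to bind, read on both strands.
ANGPTL4: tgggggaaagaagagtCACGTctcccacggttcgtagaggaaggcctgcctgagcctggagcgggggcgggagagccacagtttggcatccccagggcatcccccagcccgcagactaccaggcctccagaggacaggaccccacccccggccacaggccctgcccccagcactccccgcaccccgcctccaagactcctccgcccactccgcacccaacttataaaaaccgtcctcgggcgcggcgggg
PLIN2: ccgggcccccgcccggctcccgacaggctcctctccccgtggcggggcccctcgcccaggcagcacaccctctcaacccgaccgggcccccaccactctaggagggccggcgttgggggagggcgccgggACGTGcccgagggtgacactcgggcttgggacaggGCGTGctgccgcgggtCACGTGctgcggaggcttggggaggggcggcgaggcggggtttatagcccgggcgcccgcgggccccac
PDK4: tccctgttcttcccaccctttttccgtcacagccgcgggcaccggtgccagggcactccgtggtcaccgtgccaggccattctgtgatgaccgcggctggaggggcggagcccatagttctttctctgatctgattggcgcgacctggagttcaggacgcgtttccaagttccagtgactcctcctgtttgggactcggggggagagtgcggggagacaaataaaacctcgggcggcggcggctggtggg
ANGPTL4 held 1 match, an ACGTG on the minus strand 234 to 230 bases before the start. PLIN2 held 4 matches, namely an ACGTG at 120 to 116 bases, a GCGTG at 85 to 81 bases, and the 6-letter run at 69 to 64 bases, which reads ACGTG on each strand and is also the E-box letters bound by other factors. At least 1 match to either core stood in 43.2% of 35114 windows of this length, and at least 4 in 3.22%. CPT1A, whose window lies at the outermost RefSeq start, held 0 matches, and its window was 44.4% G and C against 68.8% in ANGPTL4 and 78.0% in PLIN2. The PPAR element DR1, a direct repeat of AGGTCA with any single base between, was searched with up to 3 mismatches on both strands. It had 0 matches in the windows of the 4 genes and at least 1 in 6310 of the 35114 windows. Of the 5 members, 4 matched an entry of the promoter table, and HILPDA did not.

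The values are FPKM, fragments scaled by transcript length and by library size. This scaling does not make libraries of unlike composition directly comparable. Over all genes tested, the median log2(FPKM + 1) shift of DMSO replicate 2 from the other DMSO libraries was -0.09. With libraries rescaled to the same total it was -0.52. No counts came with the FPKM, so the depth behind a value is unknown. FPKM summed to between 567810 and 829739 per library, with the highest sums in both replicate 2 libraries. Those libraries stood apart: relative to the other DMSO libraries, DMSO replicate 2 was shifted by a median of 0.31 on the log2(FPKM + 1) scale over the shortest of 4 equal groups of genes by transcript length, and by -0.37 over the longest. Of 11 follicular markers 9 lay under 1 FPKM in every library. Of 6 epithelial markers 4 lay at or above 1 FPKM in all libraries, KRT7, KRT18, KRT8 and, only just, EPCAM (1.06 to 1.21). The other 2 were nearly absent: KRT19 reached at most 0.08 FPKM. CDH1, which encodes E-cadherin, read 0.25 in DMSO replicate 3 and was listed at 0 in every other library. Of the adipocyte markers, the lipase gene LIPE (1.72 to 3.11 FPKM) and the droplet gene CIDEC (1.86 to 3.71) were present in every library, close to the level of PLIN2 in DMSO. The 7 adipocyte genes found summed to 5.91 to 6.33 FPKM with the solvent and 5.15 to 6.25 in BDE209, 4 of them under 1 FPKM in every library, and the adipocyte hormone ADIPOQ was listed at 0 in 5 of the 6 libraries and at 0.01 in the other. Of 5 macrophage genes found, 4 lay under 1 FPKM throughout, and the summed list, nearly all of it the lysosomal CD68, ran from 58.94 to 74.45 in DMSO and from 48.87 to 68.33 in BDE209. The 7 mesenchymal genes, chiefly vimentin (VIM), summed to between 8209 and 11980 FPKM, and single genes among them differed widely. DMSO replicate 2 was shifted by -3.82 in the collagen gene COL3A1, -1.67 in PDGFRB and -1.53 in COL1A1 from the other DMSO libraries. With replicates 1 and 3 alone, limma called the matrix proteoglycans LUM (log2(FPKM + 1) difference 1.46, adjusted p = 0.000327) and DCN (1.10, adjusted p = 0.000993) higher in BDE209, and COL3A1 (-1.70, adjusted p = 0.000144) and PDGFRB (-0.42, adjusted p = 0.0332) lower. Their part in the results on the members and on HIF targets was not tested. RNA from whole cultures cannot tell a change in every cell from a change in a share of the cells.

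All 5 members read higher in BDE209 than in the DMSO library of the same number, in each of the 3 pairs. Among the 11223 genes that were tested, 21.9% did so, and 17.3% read lower in all 3 pairs. The sizes differed sharply by replicate. In pairs 1 and 3, ANGPTL4 stood about 5-fold higher and PLIN2 close to 2-fold, with HILPDA and CPT1A near 1.5-fold, while in pair 2 each of these 4 genes differed by a ratio of 1.03 to 1.11. Only PDK4, at levels near the lower limit of the tables, had its 3 BDE209 values above its 3 DMSO values, which 3.22% of the tested genes had.

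**Figure D1:**
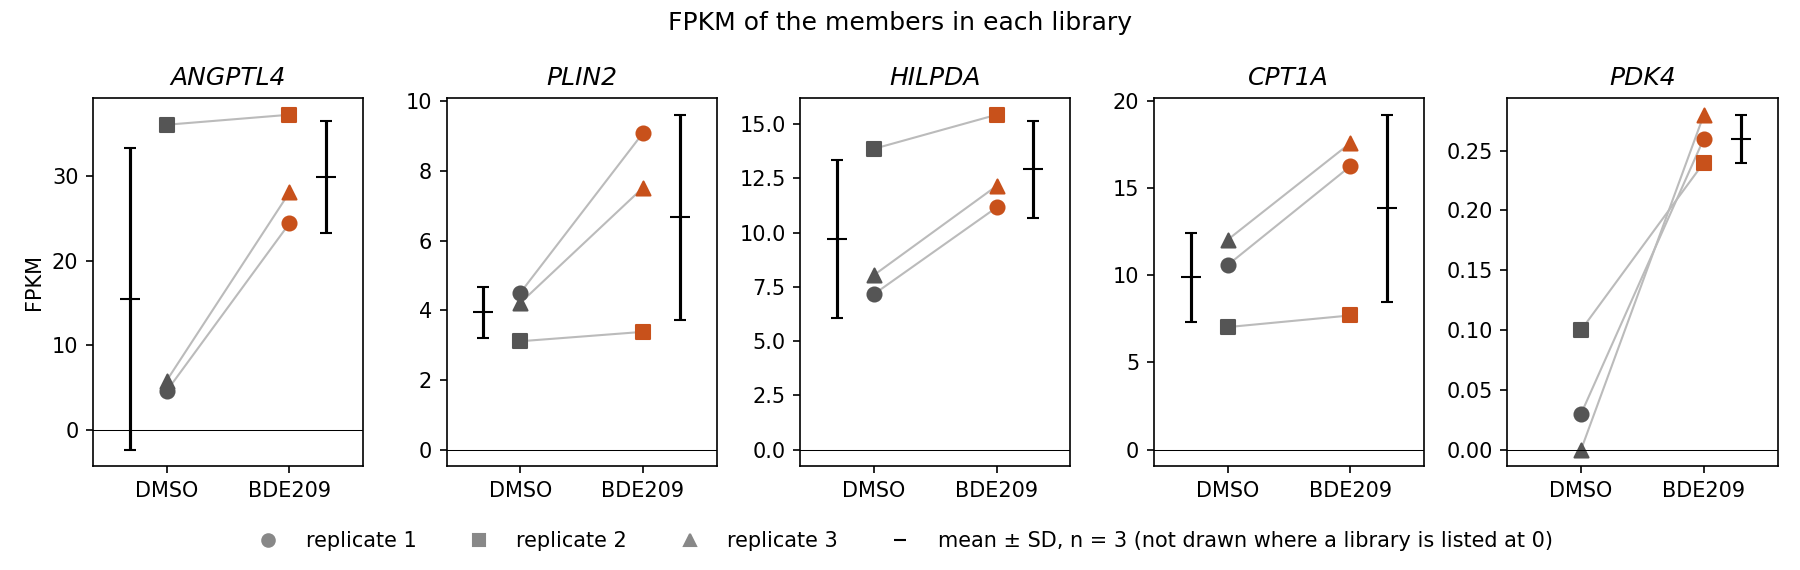
FPKM (vertical axes, 1 scale per gene) of the 5 members in DMSO and BDE209 libraries. Symbols give the replicate number, lines join libraries of the same number, and bars beside the points give the mean ± SD (n = 3), left out for PDK4 in DMSO where a library is listed at 0. Lines of replicates 1 and 3 climb in every panel, and those of replicate 2 are nearly flat in all but PDK4.

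ANGPTL4 (ENSG00000167772), the lipase inhibitor, read 4.63, 36.02 and 5.86 FPKM with the solvent (replicates 1, 2 and 3, the order kept throughout) and 24.39, 37.20 and 28.04 with BDE209. DMSO replicate 2 was thus as high as the BDE209 libraries, and the groups overlapped through that 1 library. The ratio of BDE209 to DMSO was 5.27, 1.03 and 4.78 in pairs 1, 2 and 3. Group means were 15.5 ± 17.8 FPKM with the solvent and 29.9 ± 6.60 in BDE209 (SD, n = 3), and the log2(FPKM + 1) difference was 1.43 (SE 0.71). By size that difference ranked 6 among the 11223 genes tested. It was 2.29 without DMSO replicate 2 and 0.93 without DMSO replicate 1.

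PLIN2 (ENSG00000147872), the droplet coat protein, read 4.50, 3.11 and 4.21 FPKM with the solvent and 9.09, 3.38 and 7.52 in BDE209. Here both replicate 2 libraries were the lowest of their group, and BDE209 replicate 2 fell within the DMSO range. The ratios were 2.02, 1.09 and 1.79 in pairs 1, 2 and 3. Means were 3.94 ± 0.733 and 6.66 ± 2.95 FPKM (SD, n = 3), a log2(FPKM + 1) difference of 0.56 (SE 0.33) that was 0.92 without BDE209 replicate 2 and 0.32 without BDE209 replicate 1.

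HILPDA (ENSG00000135245), the inhibitor of droplet lipolysis, read 7.16, 13.86 and 8.04 FPKM with the solvent and 11.16, 15.43 and 12.15 in BDE209. As with ANGPTL4, replicate 2 was the highest library of both groups, and DMSO replicate 2 exceeded BDE209 replicates 1 and 3. Ratios within the pairs were 1.56, 1.11 and 1.51. The means of 9.69 ± 3.64 and 12.9 ± 2.24 FPKM (SD, n = 3) gave a log2(FPKM + 1) difference of 0.42 (SE 0.26), which was 0.68 without DMSO replicate 2 and 0.25 without DMSO replicate 1.

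CPT1A (ENSG00000110090), the gate for fatty acid oxidation, read 10.57, 7.02 and 12.02 FPKM with the solvent and 16.24, 7.69 and 17.57 in BDE209. Replicate 2 was again the low library of each group, as for PLIN2, and its BDE209 value lay under DMSO replicates 1 and 3. The ratios were 1.54, 1.10 and 1.46. Means were 9.87 ± 2.57 and 13.8 ± 5.36 FPKM (SD, n = 3), and the log2(FPKM + 1) difference of 0.40 (SE 0.34) became 0.75 without BDE209 replicate 2, and 0.20, 0.20 and 0.25 without DMSO replicate 2, BDE209 replicate 3 and BDE209 replicate 1.

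PDK4 (ENSG00000004799), the kinase that shuts off pyruvate dehydrogenase, was the scarcest member and did not pass the filter of 1 FPKM in 3 libraries. It read 0.03 and 0.10 FPKM in DMSO replicates 1 and 2, was listed at 0 in DMSO replicate 3, and read 0.26, 0.24 and 0.28 in BDE209. The BDE209 values lay close together and above every DMSO value, in replicate 2 as well as in the others. The ratio was 8.67 in pair 1 and 2.40 in pair 2, and no ratio is given for pair 3, where DMSO is listed at 0. Values this low, given to 2 decimals, leave such ratios imprecise. The log2(FPKM + 1) difference was 0.27, and with a pseudocount of 0.1 in place of 1 it was 1.39.

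The order of FPKM levels among the members differed between the groups in replicates 1 and 3. In DMSO replicates 1 and 3 the order from the highest was CPT1A, HILPDA, ANGPTL4, PLIN2 and PDK4, with ANGPTL4 and PLIN2 close together in replicate 1, at 4.63 and 4.50 FPKM. In BDE209 replicates 1 and 3, ANGPTL4 came first, followed by CPT1A, HILPDA, PLIN2 and PDK4. In replicate 2 the order was the same in both groups: ANGPTL4, HILPDA, CPT1A, PLIN2 and PDK4.

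The members fell into separate patterns by their level in replicate 2. DMSO replicate 2 exceeded the mean of DMSO replicates 1 and 3 by 2.57 in ANGPTL4 and 0.79 in HILPDA, and lay under it, at -0.38 and -0.61, in PLIN2 and CPT1A, all on the log2(FPKM + 1) scale. With the libraries rescaled to the same total the shifts were 2.19, 0.37, -0.81 and -1.07 in ANGPTL4, HILPDA, PLIN2 and CPT1A, and after quantile normalization 2.57, 0.90, -0.16 and -0.45, so the directions held while sizes varied. ANGPTL4, PLIN2 and HILPDA belong to the group of shortest transcripts, whose median shift was 0.31, and CPT1A to the next-to-longest group, at -0.19. The shift of ANGPTL4 was therefore far above, and that of PLIN2 under, the median of genes of similar length. The part of the replicate 2 libraries in these differences was not tested, since replicate 2 has 1 library per group. Over the 6 libraries ANGPTL4 correlated with HILPDA at Pearson r = 0.976 and PLIN2 with CPT1A at 0.938, while ANGPTL4 with PLIN2 gave 0.0483. These values rest on few libraries, of which the replicate 2 pair stands apart, and they are descriptions.

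**Figure D2:**
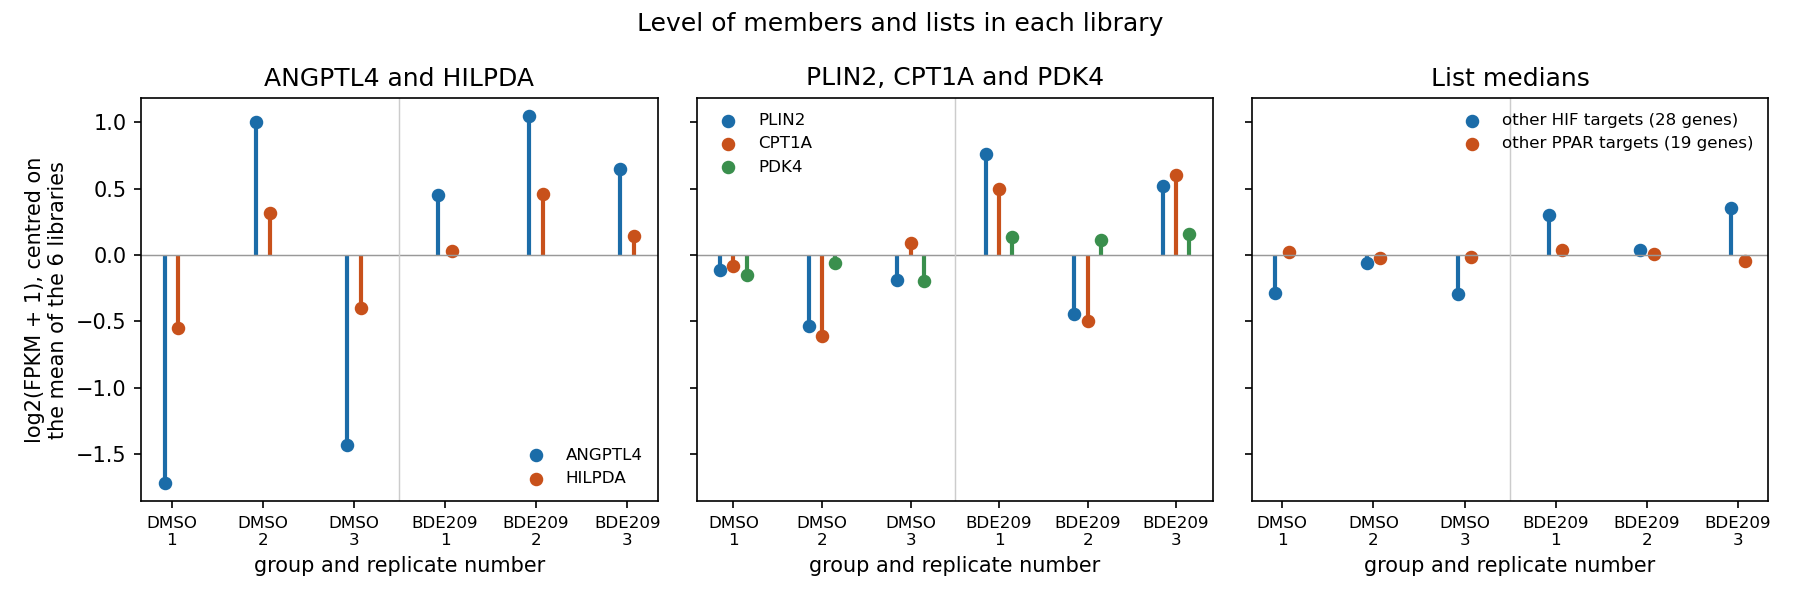
Level of each member and the median level of 28 other HIF targets and 19 other PPAR targets, as log2(FPKM + 1) centred on the mean of the 6 libraries (vertical axis), for each group and replicate number (horizontal axis). ANGPTL4 and HILPDA are high in DMSO replicate 2, PLIN2 and CPT1A are low in both replicate 2 libraries, and the median of the other PPAR targets stays near 0 in every library.

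For each member, the 3 genes with the most similar profile were taken by Pearson r of log2(FPKM + 1) over the 6 libraries, among 11044 genes with a proper symbol. For ANGPTL4 these were the lipoprotein component APOM (r = 0.9934), the lysosomal thiol reductase IFI30 (0.9928) and the glycolytic kinase PGK1 (0.9917). PGK1 read 171.59, 277.58 and 173.73 FPKM with the solvent and 269.46, 287.38 and 259.15 in BDE209, high in DMSO replicate 2 just as ANGPTL4 was. HILPDA was closest to the growth factor CSF3 (0.993), the pyruvate dehydrogenase kinase PDK3 (0.9921) and GNPDA1 (0.9904). PLIN2 was closest to the transcription factor subunit GTF2E1 (0.9996), LIMS1 (0.9969) and the collagen hydroxylase P4HA1 (0.9965), and CPT1A to the exchanger SLC24A3 (0.9989), CCDC9B (0.9983) and ISLR (0.9971). PDK4 was closest to the interferon-induced IFI6 (0.9956), the phosphatase DUSP4 (0.9929) and CEP295 (0.9889). With 6 libraries and so many genes, very high correlations arise readily, so they describe likeness only.

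Relatives of the members were read in the same libraries. With all 6, 0 of those tested were called, but 0 of all 11223 genes tested were called in that fit. ANGPTL8, a related regulator of lipoprotein lipase, was listed at 0 in all DMSO libraries and reached at most 0.09 FPKM in BDE209. LPL, the lipase that ANGPTL4 blocks, read 0.56, 0.16 and 0.81 FPKM with the solvent and 1.04, 0.21 and 1.15 in BDE209, higher in each pair but under the filter. PLIN3, the droplet and trafficking coat protein, was the abundant perilipin, at 74.03 to 104.58 FPKM with the solvent and 74.78 to 97.89 in BDE209, while PLIN1 and PLIN4 stayed at or under 0.18 FPKM. The muscle form CPT1B read 2.48 to 2.94 FPKM with the solvent and 3.12 to 3.81 in BDE209, and the neural form CPT1C read 1.23 to 1.71 and 1.78 to 1.84. In both of these the groups did not overlap, with BDE209 above, as in 3.22% of all genes tested. Their log2(FPKM + 1) differences were 0.25 (SE 0.13) and 0.22 (SE 0.13). Of the kinases, PDK1 read 5.78, 9.03 and 5.98 FPKM with the solvent and 8.82, 8.96 and 11.05 in BDE209, so that its DMSO replicate 2 lay just above BDE209 replicates 1 and 2 and under BDE209 replicate 3. PDK2 read 9.95 to 13.70 and 11.25 to 15.16, and PDK3 read 2.11 to 3.39 and 3.09 to 3.93. PDK4 therefore lay far under its relatives in every library.

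**Figure D3:**
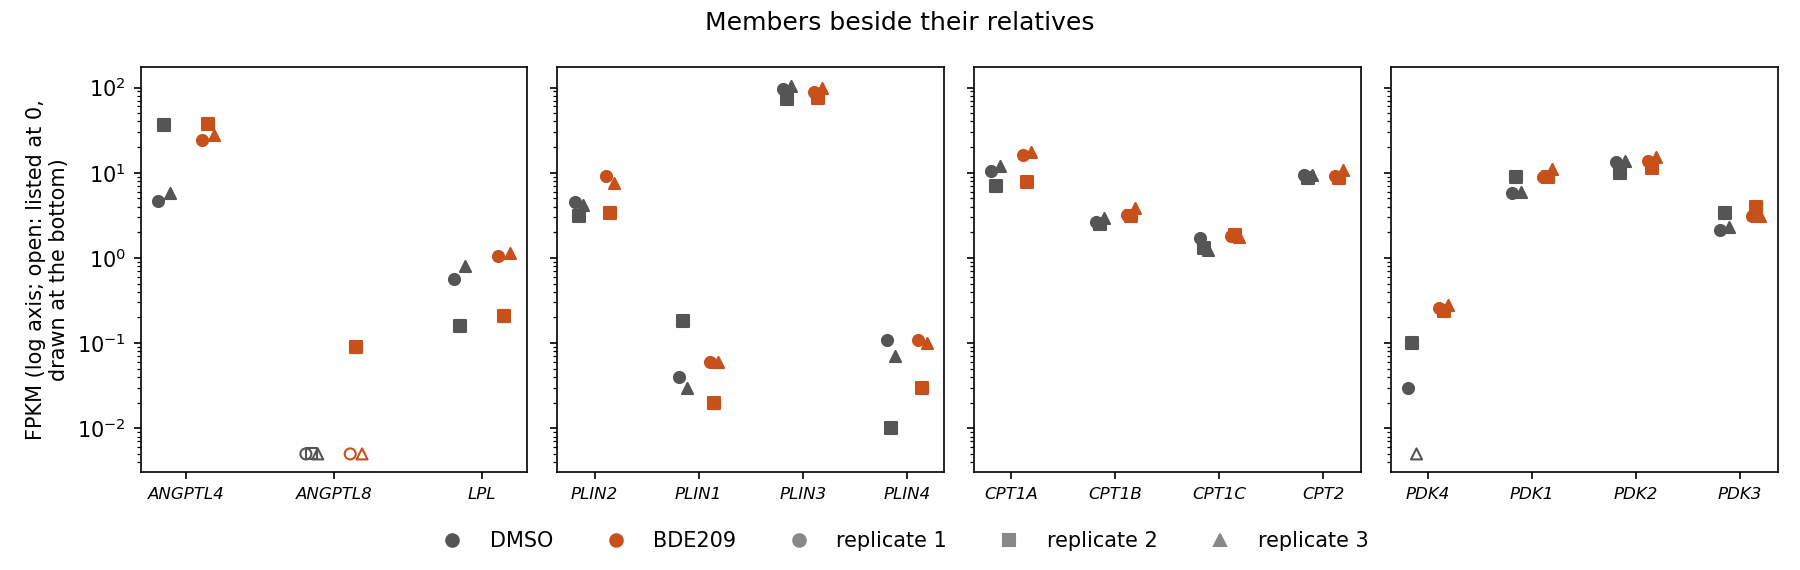
FPKM (log axis) of ANGPTL4, PLIN2, CPT1A and PDK4 beside their relatives, in DMSO (grey) and BDE209 (orange), 1 symbol per replicate number. Open symbols at the bottom stand for libraries listed at 0. PLIN3 lies above PLIN2 and PDK1 to PDK3 lie above PDK4 in all 6 libraries.

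No gene was called when limma was run on all 6 libraries: 0 of 11223 passed a Benjamini-Hochberg adjusted p under 0.05 (0% of those tested), and 1.00 was the smallest such value, although 176 genes were under 0.05 without adjustment. The same held with the replicate number as a block (0 called, 0% of those tested, 1847 at the unadjusted level, smallest adjusted p 0.0622) and without limma's trend and robust options (0 called, 186 at that level). Accordingly 0 of the 4 members tested were called in either fit. Leaving replicate 2 out was a choice made with earlier results of these data known, so calls and adjusted p-values from that fit are descriptions. With replicates 1 and 3 alone, limma called 764 genes (6.81%), of which 502 were higher (4.47%) and 262 lower (2.33%) in BDE209. All 4 members that pass the filter were among those called higher, which is no evidence about them, since they were chosen on that contrast. Genes around the members are given next, and some of those called in replicates 1 and 3 (G0S2, GPAM, FABP5 and BNIP3 among them) were picked for naming after their values were seen. Adjusted p-values for them are from limma on replicates 1 and 3 over all genes tested, and each of these genes had an adjusted p of 1.00 with all 6 libraries. The contrast of pair 2 with pairs 1 and 3 was not tested.

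Few genes of lipid droplets and their breakdown were called. Of 12 tested genes other than PLIN2 and HILPDA, 0 were called higher in replicates 1 and 3, against 4.47% of all genes tested. In those replicates 2 were called lower (16.7%, against 2.33% of all genes). In all 3 pairs 3 read higher and 4 lower, as did 21.9% and 17.3% of all genes tested. G0S2, another inhibitor of the lipase PNPLA2, read 52.16, 82.42 and 41.91 FPKM with the solvent and 30.49, 72.63 and 27.23 in BDE209, and fell in replicates 1 and 3 (log2(FPKM + 1) difference -0.68, limma adjusted p = 0.0183). ABHD5, the activator of that lipase, read 13.10, 13.44 and 12.72 FPKM and 10.06, 11.84 and 8.96, lower in all 3 pairs. Its groups did not overlap, with BDE209 below, as in 2% of all genes tested. It fell in replicates 1 and 3 (-0.41, limma adjusted p = 0.0368). PNPLA2 itself differed by 0.08 (SE 0.24) over all libraries. The droplet protein AUP1 read lower by a similar amount in each pair, at -0.26, -0.20 and -0.27, and was not called with or without the replicate block (limma adjusted p = 0.206 with it). The median log2(FPKM + 1) difference of the 12 genes was -0.06, against 0.01 for all genes tested.

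Among lipases, the endothelial lipase gene LIPG, also a target of ANGPTL proteins, read 2.04, 1.89 and 1.88 FPKM with the solvent and 0.91, 1.35 and 0.77 in BDE209, lower in all 3 pairs. It was the 1 called gene of the 5 tested (20.0% called lower, against 2.33% of all genes tested). In replicates 1 and 3 it fell by 0.69 on the log2(FPKM + 1) scale (limma adjusted p = 0.0155). The lysosomal lipase LIPA differed by 0.13 (SE 0.13). In triglyceride synthesis, 1 gene of 10 was called higher and 1 lower in replicates 1 and 3. The shares over all genes tested were 4.47% called higher and 2.33% called lower. GPAM, which adds the first acyl chain, read 8.02, 14.34 and 8.73 FPKM with the solvent and 12.53, 13.60 and 11.85 in BDE209, the pattern of a high DMSO replicate 2 seen in ANGPTL4 (difference 0.49 in replicates 1 and 3, limma adjusted p = 0.0179). LPIN1, a phosphatidate phosphatase, read 15.39, 10.96 and 15.80 FPKM and 9.88, 10.06 and 10.17 (-0.59 in replicates 1 and 3, limma adjusted p = 0.00664). Its groups did not overlap, with BDE209 below, as in 2% of all genes tested. LPIN3 differed by 0.22 (SE 0.14) over all libraries.

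Of 12 tested genes of fatty acid uptake and activation, 1 was called higher and 2 lower in replicates 1 and 3. These were 8.33% and 16.7%, against 4.47% and 2.33% of all genes tested. The median log2(FPKM + 1) difference of the 12 genes was 0.06 over all libraries. ACSL5, an acyl-CoA synthetase, read 0.84, 0.39 and 1.07 FPKM with the solvent and 2.64, 0.74 and 2.43 in BDE209, and rose in replicates 1 and 3 (difference 0.86, limma adjusted p = 0.00775). The synthetase ACSL3, known for its place on forming droplets, fell there (-0.45, limma adjusted p = 0.0187), as did the fatty acid binding protein FABP5 (-0.72, limma adjusted p = 0.0157). FABP5 was far the more abundant of these, at 172.64, 239.78 and 145.42 FPKM with the solvent and 105.12, 256.51 and 87.42 in BDE209. The fatty acid carrier CD36 stayed at or under 0.07 FPKM in every library.

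No gene acting beside or after CPT1A was called. Of 20 tested genes of the carnitine shuttle and mitochondrial oxidation other than CPT1A, 0 were called in either direction in replicates 1 and 3. Of all genes tested, 4.47% were called higher there and 2.33% lower. The median log2(FPKM + 1) difference of the 20 genes was 0.04, -0.01 and 0.06 in pairs 1, 3 and 2. ACADVL, the first enzyme for long chains and a PPAR target, read 94.56, 127.40 and 94.37 FPKM with the solvent and 108.57, 126.60 and 108.79 in BDE209. HADHA, of the trifunctional protein, differed by -0.05 (SE 0.13), and CPT2, the inner partner of CPT1A, by 0.04 (SE 0.12). In peroxisomes, 1 gene of 11 was called, as higher (9.09%, against 4.47% of all genes tested). The peroxide-splitting CAT read 22.59, 26.92 and 24.70 FPKM with the solvent and 29.95, 27.00 and 31.33 in BDE209, and rose in replicates 1 and 3 (0.36, limma adjusted p = 0.0433). CROT, which moves acyl chains to carnitine, differed by 0.23 (SE 0.12). Its groups did not overlap, with BDE209 above, as in 3.22% of all genes tested.

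Of the 13 tested genes that set pyruvate dehydrogenase activity beside PDK4, 2 rose in replicates 1 and 3 and 0 fell. The share that rose was 15.4%, against 4.47% of all genes tested. One of the genes that rose was PDK1, an inactivating kinase (difference 0.66, limma adjusted p = 0.0178). The other was PDP1, the phosphatase that reactivates the enzyme, which read 18.36, 14.87 and 19.75 FPKM with the solvent and 29.15, 16.47 and 29.40 in BDE209 (0.60, limma adjusted p = 0.00665). An enzyme that inactivates and one that activates thus rose together in these pairs. Subunits of the complex were not called, with PDHA1 at -0.14 (SE 0.27) and PDHB at -0.06 (SE 0.29) over all libraries.

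Of the receptors, 0 were called higher. PPARD, the most abundant PPAR, read 26.81, 21.07 and 28.85 FPKM with the solvent and 24.89, 18.92 and 28.84 in BDE209, a log2(FPKM + 1) difference of -0.08 (SE 0.20). PPARA read 1.87, 1.01 and 2.34 FPKM and 2.47, 1.24 and 3.13, higher in each pair (0.25, SE 0.29). PPARG read 1.07, 0.93 and 1.19 FPKM and 0.54, 1.10 and 0.31, and fell in replicates 1 and 3 (-0.58, limma adjusted p = 0.0447). RXRA differed by -0.09 (SE 0.27) and the coactivator NCOA3 by 0.16 (SE 0.12). Of the 11 receptors and partners tested, PPARG was the 1 called gene (9.09% called lower, against 2.33% of all genes tested).

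The members are known PPAR targets and some are also HIF targets, so other targets of each kind were read beside them. Of the 19 other PPAR targets tested, 1 was called higher (CAT, 5.26%) and 2 lower (G0S2 and LPIN1, 10.5%). Of all genes tested, 4.47% were called higher and 2.33% lower. The median log2(FPKM + 1) difference of the other PPAR targets was 0.11, 0.00 and 0.05 in pairs 1, 2 and 3. A further 10 of the 29 PPAR targets found, FABP4 among them, did not pass the filter. Of the 28 other HIF targets, 22 rose in replicates 1 and 3 (78.6%, against 4.47% of all genes tested) and 0 fell. Their medians were 0.65, -0.02 and 0.60 in pairs 1, 2 and 3, against 0.01, 0.02 and 0.00 for all genes. The lists were chosen with earlier results of these data known, and the difference between them was not tested.

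**Figure D4:**
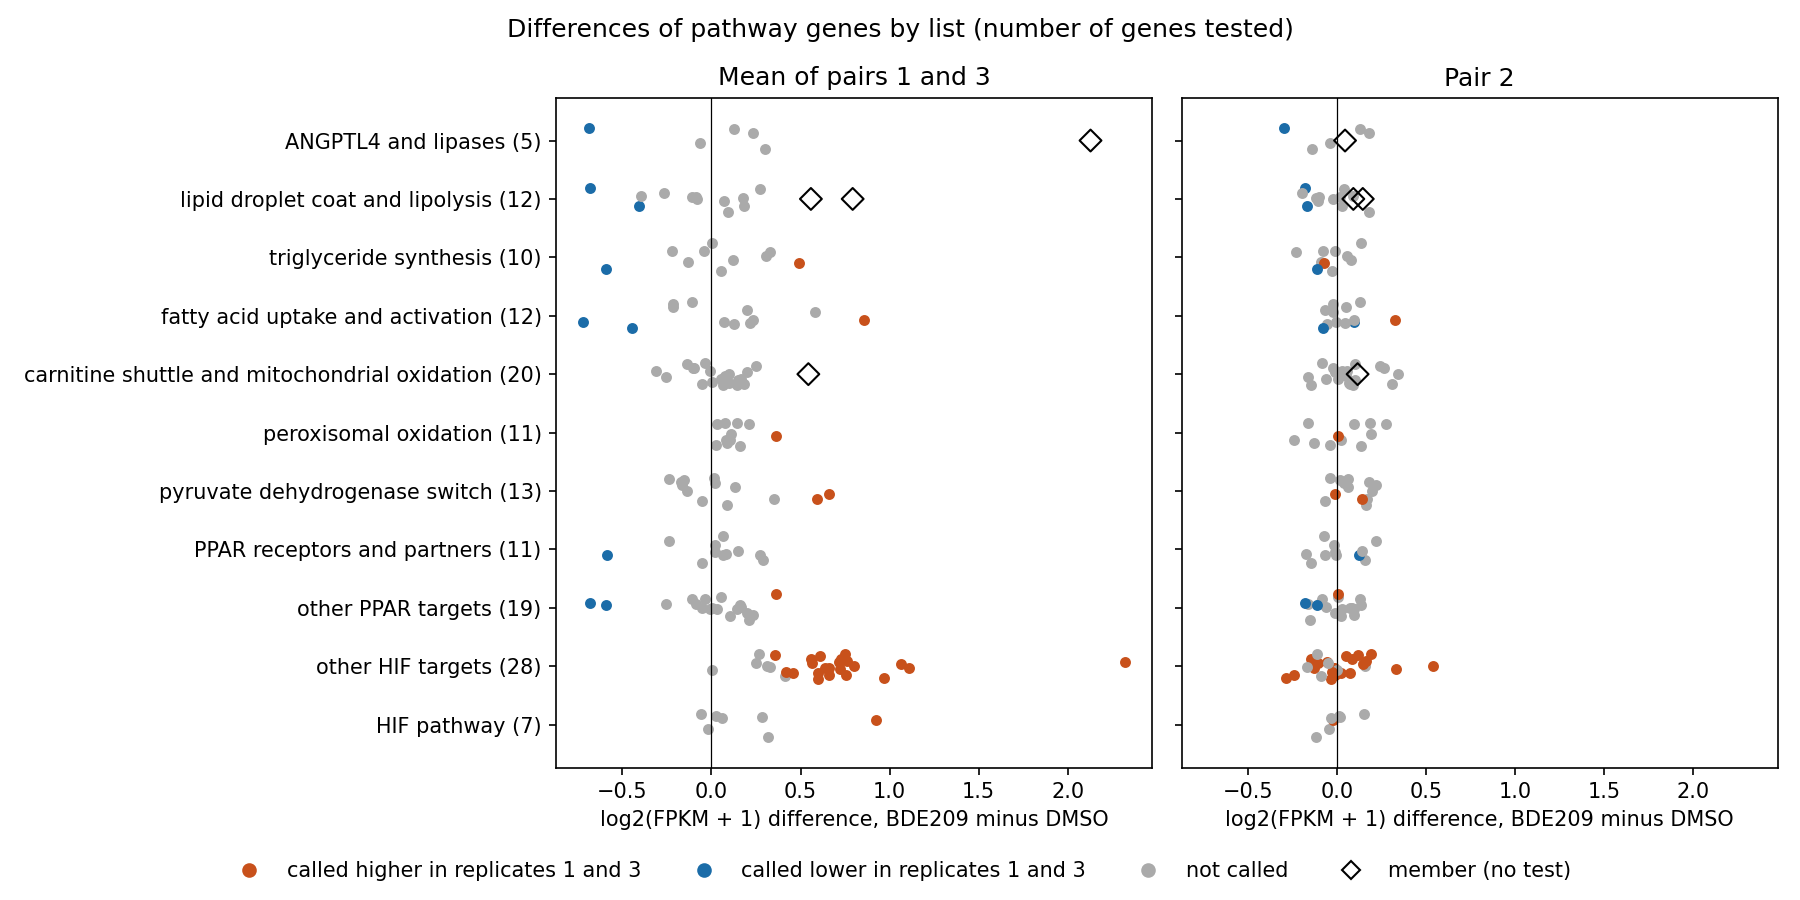
Differences (BDE209 minus DMSO, log2(FPKM + 1), horizontal axes) of the tested genes of each list, as the mean of pairs 1 and 3 (left) and in pair 2 (right). Points are genes, coloured where called by limma in replicates 1 and 3, and open diamonds are members, shown without a test. Of 28 other HIF targets 22 are called higher on the left, and on the right the same list lies around 0.

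The HIF targets were mixed in replicate 2. They were sorted by whether replicate 2 lay above or below the mean of replicates 1 and 3, by however little. Of 28, 5 lay above that mean in both groups, as ANGPTL4 and HILPDA did. A further 6 lay below it in both, as PLIN2 and CPT1A did, and 17 lay above it in DMSO and below it in BDE209. All genes tested were not sorted in this way, so no share over all genes stands beside these counts. The sorting was made on the FPKM as given, and its signs depend on the scaling. It therefore describes the list and does not tie the members to it. MXI1, a repressor of MYC, read 4.85, 6.34 and 5.08 FPKM with the solvent and 11.94, 7.11 and 11.02 in BDE209 (difference 1.06 in replicates 1 and 3, limma adjusted p = 0.00108). NDRG1 rose there by 0.75 (limma adjusted p = 0.00192), and the mitophagy receptor BNIP3 read 126.34, 313.09 and 123.10 FPKM with the solvent and 268.23, 286.20 and 271.10 in BDE209 (1.11, limma adjusted p = 0.00042), with a DMSO replicate 2 above all BDE209 libraries. Of the 28 HIF targets, 22 read higher in DMSO replicate 2 than the mean of the other DMSO libraries, or 78.6%, against 42.7% of all genes tested, with a median shift of 0.25. With libraries rescaled to the same total, 9 did (32.1%, against 16.2%), and after quantile normalization 18 did (64.3%, against 49.6%). With the rescaled libraries the median shift was -0.22 against -0.52 for all genes, so its direction depends on the scale while its place above the median of all genes does not. EPAS1, which encodes HIF2 alpha, read 19.22, 19.09 and 20.85 FPKM with the solvent and 37.63, 18.77 and 39.99 in BDE209, and rose in replicates 1 and 3 (0.92, limma adjusted p = 0.00153). HIF1A differed by -0.03 (SE 0.13) and VHL, which marks HIF for breakdown, by 0.20 (SE 0.33).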

How the data were processed

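Each deposited table holds 1 FPKM per human Ensembl identifier, rounded to 2 decimals, per the file headers. RSEM, Bowtie2 and Bowtie 0.12.2 are listed, per the submitters' processing notes, beside mm8 and mm10, which are mouse builds. Which human build was used, what each tool did and whether strand was used is not given in the sources used here. RAB11B-AS1 overlaps ANGPTL4 on the other strand in GENCODE v29 and 2 transcribed loci overlap HILPDA, so reads may have been shared; these loci are not analysed here.

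Of 16614 rows per file, 40 rows of 20 repeated identifiers were left out. Limma 3.58.1 (R 4.3.3, trend and robust options) was run on log2(FPKM + 1) for the 11223 genes with at least 1 FPKM in 3 or more libraries. Treatment alone was in the fit. The fit was also run on simulated data with independent spread in each library. Those data held no shift shared by libraries of the same number, so that run says nothing about such a shift. A gene counted as called when its Benjamini-Hochberg adjusted p was under 0.05. Each difference is BDE209 minus DMSO, on a scale that understates changes of low genes. SE values are limma's without the block, so they include the spread between replicate numbers. Transcript length is the longest transcript in GENCODE v29. Depth in fragments is unknown, so no counting error can be given.

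Libraries were paired here by replicate number. Deviations from the group means correlated at 0.738, 0.875 and 0.824 between DMSO and BDE209 libraries numbered 1, 2 and 3. Libraries numbered 1 and 3 also correlated across numbers, at 0.644 and 0.646, and replicate 2 with the others at -0.822 to -0.755, so the correlations set replicate 2 apart far more than they tell 1 from 3. Deviations from a group mean cancel out within the group, so a replicate 2 that stands apart in both groups gives these signs by itself. The correlations therefore cannot settle whether replicates 1 and 3 are truly paired. The labels do not say what a number shares.

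The members, lists and the choice to fit replicates 1 and 3 alone were made with earlier results of these data known. Named were the members, their relatives, LPL and PPAR receptors, from each list the 2 genes with the smallest p, and each member's 3 most similar genes; others were named after their values were seen. Alternatives covered pseudocount, filter, block, scaling, variance model and left-out libraries.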

Additional observations from a re-analysis of the deposited data

How the results depend on the processing

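Every alternative that gave a value kept the sign of each member's log2(FPKM + 1) difference. It ranged from 0.93 to 2.29 in ANGPTL4, 0.25 to 0.68 in HILPDA and 0.20 to 0.75 in CPT1A over 14 alternatives each, from 0.32 to 0.92 in PLIN2 over 13, and from 0.24 to 1.39 in PDK4 over 12. PLIN2 and PDK4 do not pass a minimum of 5 FPKM, and PDK4 was not followed under quantile normalization. With replicates 1 and 3 alone 764 genes and 34 of 129 pathway genes were called, against 0 and 0 with all libraries; the cause was not tested. Leaving out 1 library at a time gave 0 to 1 called genes (the 1 without BDE209 replicate 2) and 0 to 0 pathway genes. With the replicate block 0 genes and 0 pathway genes were called, so the pairing changed no call. Other scalings were added after seeing the data for the shift of DMSO replicate 2: the median of the other HIF targets went from 0.25 to -0.22 with libraries rescaled to the same total, and that of the other PPAR targets from -0.07 to 0.15 after quantile normalization. The depth behind each value is unknown.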
